A study of Mus musculus with 16 samples.

Results

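The immediate early response genes examined here were Fos, Fosb, Jun, Junb, Egr1, Egr2, Atf3, Ier2, Nr4a1 and Zfp36, a set of 10 genes listed by name. The RefSeq accession that each probe carries was matched to its gene symbol, and every probe of the 10 genes was taken, which gave 12 of the 41174 probes and 10 of the 19092 named genes on the array. Junb and Zfp36 each had 2 probes, and the other members had 1. All 12 probes were well above background on all 16 arrays, so no member was lost to the filter on dim probes.

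The groups were white fat of male mice with an adipose-tissue-specific knockout of the glucocorticoid receptor (AdipoKO_WAT), white fat of male control mice (CTL_WAT), brown fat of the knockout mice (AdipoKO_BAT) and brown fat of the controls (CTL_BAT), with 4 arrays each. The receptor, encoded by Nr3c1, is a transcription factor that cortisol or corticosterone switches on. The study's design text calls the controls wild type and the 4 arrays of a group biological replicates. The promoter that drives the deletion and the age, diet and handling of the mice are not given in the sources used here, and RNA came from whole tissue, which holds vessels, immune cells and progenitors beside adipocytes.

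Immediate early genes are transcribed within minutes of a stimulus such as a hormone, a growth factor or stress, without new protein having to be made first. Kinase cascades act on factors already bound at their promoters, among them CREB at the cyclic AMP response element and the serum response factor at the CArG box, and the transcripts are then broken down quickly. In fat, adrenergic signals that raise cyclic AMP induce several of them, Nr4a1 in brown fat among them. FOS, FOSB, JUN, JUNB and ATF3 are leucine zipper proteins that pair into AP-1 and related dimers, EGR1 and EGR2 are zinc finger transcription factors, NR4A1 is an orphan nuclear receptor, IER2 is a small nuclear regulator, and ZFP36 (tristetraprolin) binds AU-rich elements in cytokine mRNAs and speeds their decay.

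The text below gives levels as log2 of the spot intensity minus the array's 75th percentile, so a level of 0 equals that percentile and a difference of 1 is a doubling, and levels of different probes were not set against each other. Between 67.3% and 77.0% of the 43379 spots that were not controls were well above background on an array, 0 spots were saturated, and the number of arrays limits the precision. Arrays of the same group were set against each other in 24 pairs, and 9 of these pairs lay closer together than the error the scanner software gives, with a ratio of difference to error of 0.376 to 0.659 over 9836 bright probes, while the remaining 15 had ratios of 1.10 to 4.28. Such close arrays entered as their mean and as 1 sample, which left 9 distinct samples: knockout white 1, knockout white 2, 3 and 4 together, control white 1 and 4, control white 2 and 3, knockout brown 1, knockout brown 2, 3 and 4 together, control brown 1, control brown 2 and 3, and control brown 4. Every knockout group therefore held 2 samples, and p-values measure the spread between these samples, which could be technical. The brightest Nr3c1 probe averaged 1.39 in knockout white fat, against 2.28 in control white fat, and 1.60 in knockout brown fat, against 2.45 in control brown fat, and on that probe knockout and control arrays overlapped in neither tissue (limma adjusted p = 0.415 in white and 0.619 in brown fat). On 1 of the 4 Nr3c1 probes they overlapped in white fat.

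The promoters of the members differ in the response elements they hold close to the start. Windows of 250 bases before the transcription start were available for 8 of the 10 members in RefSeq's table of the GRCm38.p6 assembly, and Egr1 and Ier2 had none. Both strands were searched for TGACG, the conserved core of the cyclic AMP response element, which 17.8% of all 32851 windows hold and which was found in the windows of 6 members, Fos, Fosb, Junb, Egr2, Atf3 and Nr4a1. The full element, TGACGTCA, which contains that core, was in none of the 8 members' windows and in 1.55% of all. The AP-1 site TGANTCA was in none of theirs and in 6.75% of all, and the glucocorticoid response element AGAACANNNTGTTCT was in none of theirs and in 0.00913% of all. The EGR site GCGNGGGCG was in the windows of Fosb, Nr4a1 and Zfp36 and in 4.70% of all, and the CArG box, searched with any run of A or T at its centre, was in those of Egr2 and Zfp36 and in 1.47% of all. The 8 members have 12 windows, as Egr2 has several. A member counted if any of its windows matched, while the percentages count windows, so the units differ. A match describes letters in the window and is no measure of binding.

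The windows of the 4 members on which the results below turn most are printed 5′ to 3′ in the direction of the gene, with TGACG, or CGTCA where it lies on the other strand, in capitals. Fos had the lowest p of the members in the white fat comparison and has sites 129 and 66 bases before the start (chr12:85473640-85473889, plus strand). Nr4a1 was the member that passed the threshold between the tissues and has 4 sites, 233, 213, 69 and 40 bases before the start (chr15:101266596-101266845, plus strand). Junb stood higher in one knockout sample of each tissue than in all controls and has 1 site, 106 bases before the start (chr8:84978749-84978998, minus strand). Egr2 varied most between the knockout white samples and has 5 listed starts. The one shown has sites 111 and 55 bases before it (chr10:67537619-67537868, plus strand), while the windows of some other listed starts hold none.
Fos: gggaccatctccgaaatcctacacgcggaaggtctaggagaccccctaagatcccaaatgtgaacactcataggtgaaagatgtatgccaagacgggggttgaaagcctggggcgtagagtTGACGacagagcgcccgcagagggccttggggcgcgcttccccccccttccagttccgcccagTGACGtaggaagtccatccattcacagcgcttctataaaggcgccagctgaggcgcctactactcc
Nr4a1: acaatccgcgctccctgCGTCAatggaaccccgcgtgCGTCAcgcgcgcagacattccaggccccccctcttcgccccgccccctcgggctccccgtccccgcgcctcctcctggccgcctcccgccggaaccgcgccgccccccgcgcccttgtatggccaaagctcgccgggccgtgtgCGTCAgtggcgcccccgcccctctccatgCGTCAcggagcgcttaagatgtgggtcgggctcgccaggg
Junb: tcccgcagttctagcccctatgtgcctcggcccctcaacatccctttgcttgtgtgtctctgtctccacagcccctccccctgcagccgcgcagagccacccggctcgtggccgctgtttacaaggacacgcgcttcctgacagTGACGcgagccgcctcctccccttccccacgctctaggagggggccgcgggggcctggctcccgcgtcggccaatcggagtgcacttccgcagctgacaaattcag
Egr2: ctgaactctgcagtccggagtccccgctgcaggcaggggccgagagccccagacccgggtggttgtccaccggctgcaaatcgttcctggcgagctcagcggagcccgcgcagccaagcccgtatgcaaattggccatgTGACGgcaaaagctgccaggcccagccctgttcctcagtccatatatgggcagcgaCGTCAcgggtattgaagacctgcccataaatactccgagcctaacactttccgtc

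The first comparison asked what loss of the receptor did to these genes in white fat. Fos, Jun, Egr1, Atf3 and Nr4a1 stood lower on all 4 knockout arrays than on all 4 control arrays, with mean differences of -0.77 to -1.75 on the log2 scale, while Junb and Ier2 averaged slightly higher and Fosb, Egr2 and Zfp36 overlapped. No member passed an adjusted p of 0.05 (limma, Benjamini-Hochberg over 15465 genes), and 0% of all genes did. At an unadjusted p of 0.05 the count was 3 of 10 members, Fos, Egr1 and Nr4a1, against 9.99% of all genes. The 5 members whose arrays lay wholly below the controls compare with 18.5% of all genes, and 0 members lay wholly above them, against 10.9%. The median difference of the members was -0.67, against -0.04 over all genes, and 8 of 10 means were lower, against 52.5% of all genes. With all 16 arrays counted as separate samples 4 of 10 members passed, Fos, Jun, Egr1 and Nr4a1, as did 6904 of all 15465 genes. That fit counts arrays that differ by less than the scanner's error as separate samples.

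Fos, the partner that gives AP-1 its inducible activity, was at -2.89, -3.24, -3.28 and -3.30 on knockout white arrays 1 to 4, against -0.80, -1.95, -1.88 and -0.72 on control white arrays 1 to 4. Every knockout array was lower than every control array, and the controls themselves fell into a higher pair, arrays 1 and 4, and a lower pair, arrays 2 and 3. The probe has 10 spots per array, whose SD on the log2 scale was 0.037 to 0.145, which measures spot noise and not the spread between samples. The mean difference was -1.75 ± 0.47 (SE, 2 knockout and 2 control samples), a 70.2% lower signal, with an unadjusted p of 0.00711 and an adjusted p of 0.417 from limma, and a 95% interval of -2.85 to -0.65. On the slide that holds 2 knockout and 2 control arrays of white fat the difference was -1.77. Those arrays come from the same 2 knockout and 2 control samples, so this value is no separate check. Whether fewer cells with the transcript or less of it per cell was present cannot be told apart in bulk tissue, here and for every member.

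Jun, the most common AP-1 partner of FOS, was at 0.67, -0.47, -0.44 and -0.41 on the knockout white arrays, against 0.91, 0.89, 0.90 and 0.96 on the control white arrays. The controls were tight and knockout 1 lay much closer to them than the other 3 arrays did. The difference was -0.80 ± 0.41 (SE, 2 samples each, limma adjusted p = 0.528), and the interval of -1.76 to 0.16 spans 0. Knockout 1 differed from the control mean by -0.24 and the sample of knockout 2, 3 and 4 by -1.35.

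Atf3, a stress-induced repressor of the ATF family, was at -1.36, -1.05, -1.19 and -1.18 in knockout white fat, against -0.32, -0.53, -0.59 and -0.46 in control white fat. Both knockout samples lay below both control samples, and the difference was -0.77 ± 0.54 (SE, limma adjusted p = 0.602). Fosb, a slower relative of Fos, was dim, at -4.50, -4.44, -3.96 and -4.14 in knockout white fat, against -3.53, -3.52, -4.04 and -3.97 in control white fat. Its groups overlapped, and the difference of -0.57 ± 0.74 was smaller than its error.

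Egr1, which turns on genes with GC-rich promoters, was at 0.93, 1.91, 1.75 and 1.74 in knockout white fat, against 2.56, 2.09, 2.18 and 2.63 in control white fat. All knockout arrays lay below the controls and knockout 1 was the lowest, with a difference of -1.0 ± 0.40 (SE, 2 samples each), an unadjusted p of 0.0395 and a limma adjusted p of 0.490. Egr2, known from myelination and from early adipogenesis in culture, was at -1.72, 0.87, 0.89 and 0.93 in knockout white fat, against -0.51, -0.16, -0.18 and -0.47 in control white fat. One knockout sample stood below and the other above every control array, so that the mean difference of -0.08 ± 0.77 describes neither.

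Nr4a1 was at 2.28, 2.85, 2.87 and 2.86 in knockout white fat, against 3.72, 3.08, 3.01 and 3.65 in control white fat. The groups did not overlap, although knockout 2, 3 and 4 lay just below control arrays 2 and 3. The difference was -0.80 ± 0.30 (SE, 2 samples each), with an unadjusted p of 0.0345 and a limma adjusted p of 0.485. On the slide shared by knockout and control white arrays the differences were -0.77 for Nr4a1, -0.83 for Jun, -0.99 for Egr1 and -0.68 for Atf3. That slide holds arrays of the same samples that made the group means, so these values are no separate check.

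**Figure D1:**
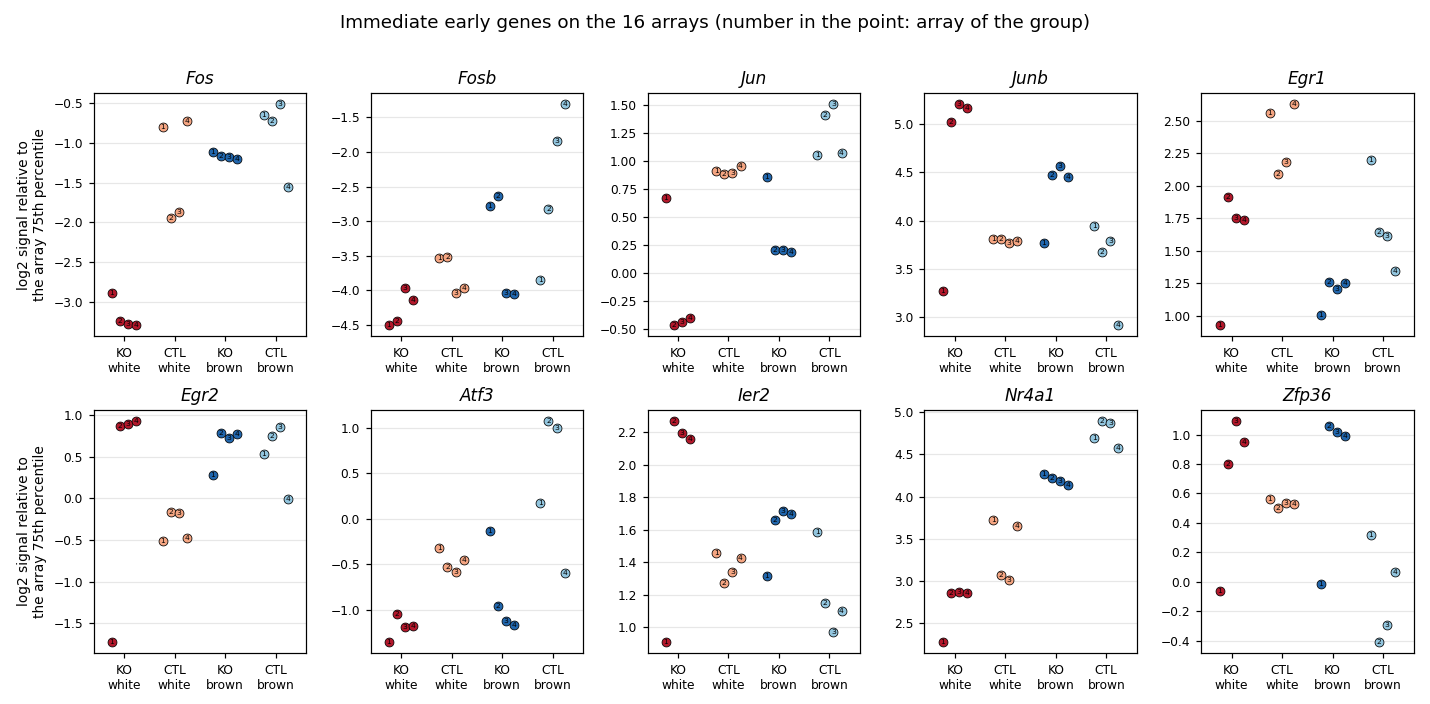
Level of each immediate early gene on each of the 16 arrays, as log2 signal relative to the array's 75th percentile, with 1 point per array, its number in the point, and a panel and scale of its own for each gene. In white fat Fos, Jun, Egr1, Atf3 and Nr4a1 lie lower on every knockout array than on every control array, and knockout array 1 stands apart from knockout arrays 2, 3 and 4 for Jun, Junb, Egr1, Egr2, Ier2 and Zfp36.

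Junb, Ier2 and Zfp36 split the knockout white samples. Junb, an AP-1 subunit that often opposes JUN, was at 3.27 on knockout 1 and at 5.02, 5.21 and 5.17 on knockout 2, 3 and 4, against 3.81, 3.81, 3.77 and 3.78 on the control white arrays. The controls lie so close together that both knockout samples fall outside them, on opposite sides, and the mean difference was 0.41 ± 0.63 (SE, limma adjusted p = 0.791). Its second probe gave 0.38 ± 0.51. Ier2 was at 0.91 on knockout 1 and at 2.27, 2.19 and 2.15 on knockout 2, 3 and 4, against 1.46, 1.27, 1.34 and 1.43 in control white fat, with a difference of 0.18 ± 0.43. Zfp36 was at -0.06 on knockout 1 and at 0.80, 1.09 and 0.95 on knockout 2, 3 and 4, against 0.57, 0.50, 0.53 and 0.53 in control white fat, with a difference of -0.09 ± 0.46.

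Taken by sample, knockout white 1 was below every control array for all 10 members, where 37.1% of all genes were, with a median difference from the control mean of -0.81. The sample of knockout white 2, 3 and 4 was below every control array for 5 members (Fos, Jun, Egr1, Atf3 and Nr4a1), where 40.3% of all genes were, and above every control array for 4 (Junb, Egr2, Ier2 and Zfp36), where 34.5% were. Markers of T, B and NK cells also differed between these samples, as other marker lists given below did. Of these markers 17 of 18 were measured, and 0 were below background on every array. Their median level was -1.82 in knockout white 1 and 3.36 in knockout white 2, 3 and 4, against -1.62 and 0.92 in the control white samples, and their summed linear level ranged from 29.0 to 267 over knockout white arrays, against 11.8 to 56.1 over control white arrays. Their part in the levels of Junb, Egr2, Ier2 and Zfp36 was not tested. Group means of several other marker lists stood lower, with 0 markers past the threshold. Adipocyte markers were lower in 12 of 12 (median -0.84), endothelial in 8 of 9 (-0.70) and progenitor in 7 of 8 (-0.72). Mesothelial markers were lower in 8 of 8 (-1.69) and erythroid in 3 of 3 (-1.69). Macrophage markers were lower in 8 of 12 (-0.22) and skeletal muscle markers in 2 of 14 (0.63). By sample, several of these lists split knockout white 1 from knockout white 2, 3 and 4 too. In that order the adipocyte medians were 6.88 and 5.23, against 7.31 and 6.99 in the control white samples. Endothelial medians were 2.765 and 2.067, against 2.755 and 2.852 there, and mesothelial medians 1.38 and -2.26, against 1.72 and 0.36. The part of those cells in the members' lower means was not tested.

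The second comparison asked the same of brown fat. Jun, Egr1 and Nr4a1 stood lower on all 4 knockout arrays than on all 4 control arrays, against 16.6% of all genes, and no member stood wholly higher, against 11.4%. No member passed an adjusted p of 0.05 in limma, nor did any at an unadjusted p of 0.05, where 0% and 7.05% of all genes did. The members' median difference was -0.35, against -0.12 over all genes, and 6 of 10 means were lower, against 60.1% of all genes. On the authors' unscaled values the members' median in brown fat was 0.080, because all genes shifted by 0.31 there, and relative to that shift it was -0.23, as it was with scaling.

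Jun was at 0.86, 0.20, 0.21 and 0.18 on knockout brown arrays 1 to 4, against 1.06, 1.42, 1.51 and 1.07 on control brown arrays 1 to 4. As in white fat, knockout 1 lay nearest the controls, and the difference was -0.67 ± 0.37 (SE, 2 knockout and 3 control samples, limma adjusted p = 0.619). Egr1 was at 1.01, 1.26, 1.20 and 1.25 in knockout brown fat, against 2.20, 1.64, 1.62 and 1.34 in control brown fat, a difference of -0.60 ± 0.36. Nr4a1 was at 4.27, 4.22, 4.18 and 4.14 in knockout brown fat, against 4.70, 4.90, 4.88 and 4.57 in control brown fat, a difference of -0.49 ± 0.28, or 29.0% lower signal (limma adjusted p = 0.619). The 2 Nr4a1 groups were each tight and did not overlap. Within the slide shared by knockout and control brown arrays the differences were -0.76 for Jun, -0.34 for Egr1 and -0.48 for Nr4a1. That slide holds arrays of the samples already in the group means, without control brown 1, so these values are no separate check.

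Fos did not separate the brown groups. It was at -1.12, -1.17, -1.18 and -1.20 in knockout brown fat, against -0.64, -0.72, -0.51 and -1.56 in control brown fat, where control 4 lay below all knockout arrays, and the difference was -0.21 ± 0.43. Atf3 was at -0.14, -0.96, -1.13 and -1.16 in knockout brown fat, against 0.17, 1.08, 1.0 and -0.60 in control brown fat, again with control 4 low, and differed by -0.81 ± 0.49. Fosb ranged from -4.06 to -2.63 on knockout brown arrays, against -3.85 to -1.31 on control brown arrays, with a difference of -0.68 ± 0.68. Its single spot differed by more than 1 even among arrays counted as 1 sample, at -2.63 on knockout brown 2 but -4.04 and -4.06 on knockout brown 3 and 4.

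Junb and Zfp36 averaged higher in knockout brown fat. Junb was at 3.77, 4.47, 4.56 and 4.45 in knockout brown fat, against 3.95, 3.67, 3.79 and 2.91 in control brown fat, so that knockout 1 lay among the controls and the other 3 arrays above them, with a difference of 0.60 ± 0.58 (SE, limma adjusted p = 0.685). Zfp36 on its brighter probe was at -0.02, 1.06, 1.01 and 0.99 in knockout brown fat, against 0.32, -0.41, -0.30 and 0.07 in control brown fat, with a difference of 0.49 ± 0.42 (limma adjusted p = 0.666). On its dimmer probe Zfp36 was at -3.27, -2.63, -2.48 and -2.50 in knockout brown fat, against -3.59, -4.44, -3.86 and -3.83 in control brown fat. There the groups did not overlap, and the difference was 0.95 ± 0.35 with an unadjusted p of 0.0283 and a limma adjusted p of 0.593 over 29304 probes. The 2 Zfp36 probes thus gave the same direction in brown fat and opposite signs in white fat, where both differences, -0.09 and 0.06, were far below their errors.

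Ier2 and Egr2 lay close between the brown groups. Ier2 was at 1.32, 1.66, 1.72 and 1.69 in knockout brown fat, against 1.59, 1.15, 0.97 and 1.10 in control brown fat (0.25 ± 0.39), and Egr2 at 0.28, 0.79, 0.73 and 0.78, against 0.54, 0.75, 0.86 and -0.0047 (0.08 ± 0.70). Junb, Ier2 and Zfp36 were above every control array in the sample of knockout brown 2, 3 and 4, and so were 24.1% of all genes, while knockout brown 1 had 0 members above every control array, against 17.6% of all genes. Below every control array were 4 members (Jun, Egr1, Atf3 and Nr4a1) in knockout brown 2, 3 and 4, against 36.7% of all genes, and 3 (Jun, Egr1 and Nr4a1) in knockout brown 1, against 25.9%. For the lymphocyte markers of the T, B and NK list the median was 0.59 in knockout brown 1 and 2.16 in knockout brown 2, 3 and 4, against -1.61, -2.51 and -3.55 in the control brown samples, and summed to 45.0 to 148 over knockout brown arrays, against 2.54 to 37.5 over control brown arrays. Skeletal muscle markers were lower in 14 of 14 (median -0.79), with summed levels of 1865 to 3394 over knockout brown arrays, against 3698 to 4752 over control brown arrays. Adipocyte markers were lower in 12 of 12 (-0.27) and endothelial in 7 of 9 (-0.42). Progenitor markers were lower in 6 of 8 (-0.60) and macrophage in 9 of 12 (-0.36). Brown adipocyte markers were lower in 7 of 10 (-0.36) and mesothelial in 7 of 8 (-0.62). Erythroid markers were lower in 3 of 3 (-0.98), and neutrophil and mast cell markers in 5 of 7 (-0.77). Of these markers 0 passed the threshold. Brown adipocyte medians were 0.73 in knockout brown 1 and 0.49 in knockout brown 2, 3 and 4. In control brown 1, control brown 2 and 3, and control brown 4 they were 1.31, -0.33 and 2.01. The part of those cells in these levels was not tested.

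**Figure D2:**
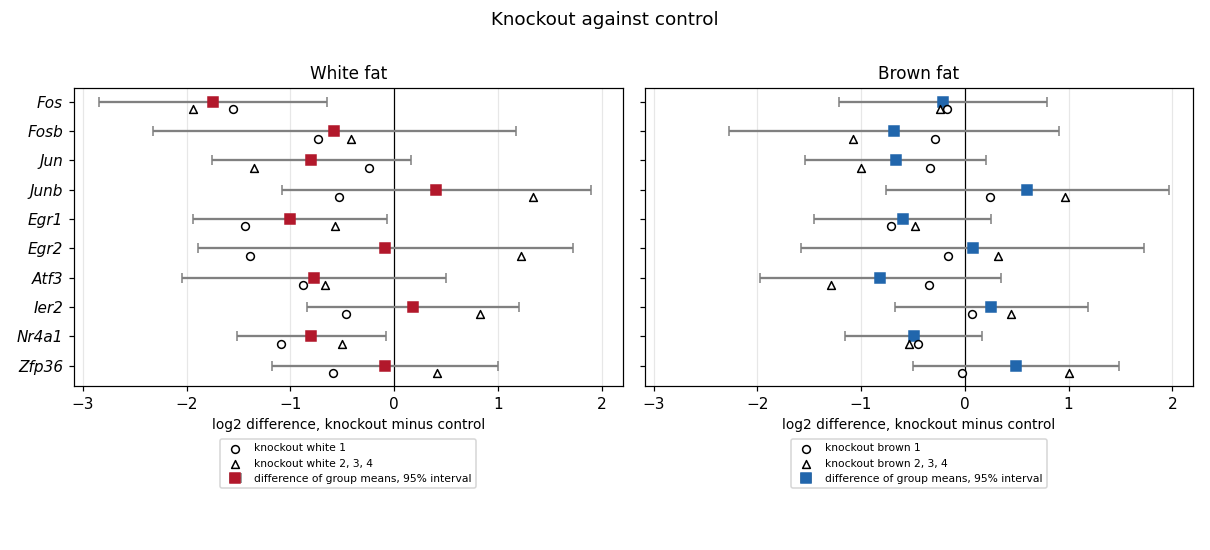
Difference between knockout and control in log2 units for each immediate early gene, in white fat (left panel) and brown fat (right panel). Squares are differences of group means with 95% intervals from limma, and the open circle and triangle under each are the 2 knockout samples minus the control mean. For Junb, Egr2, Ier2 and Zfp36 in white fat the circle and the triangle lie on opposite sides of 0.

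Whether the knockout differed more in one tissue than in the other was tested as the difference between both effects. Fos had the largest such value among the members, 1.54 ± 0.63 (SE), from -0.21 in brown fat against -1.75 in white fat, with an unadjusted p of 0.0449 but a limma adjusted p of 1. The other 9 members ranged from -0.11 for Fosb to 0.58 for Zfp36, each within its own error, and 0 of 10 members and 0% of all genes passed, while at an unadjusted p of 0.05 the counts were 1 member and 2.60% of all genes.

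Brown against white fat gave the one member that passed the threshold. In control mice Nr4a1 was at 4.70, 4.90, 4.88 and 4.57 on the brown arrays, against 3.72, 3.08, 3.01 and 3.65 on the white arrays. Every brown array was higher than every white array. The difference was 1.35 ± 0.28 (SE, 3 brown and 2 white samples), 2.55-fold, with a limma adjusted p of 0.0408. It was 1 of 10 members called, against 5.05% of all genes, or 3.92% in that direction, and at an unadjusted p of 0.05 it was again the 1 member, against 22.8% of all genes. The adjusted p ranged from 4.24e-05 to 0.307 over 33 alternatives, the difference from 1.01 to 1.67, and the direction held in all 33. It lost the threshold in 12 of them, which include leaving out control brown 1 (adjusted p = 0.110), control brown 2 and 3 (0.151), control brown 4 (0.0841), control white 1 and 4 (0.114), control white 2 and 3 (0.307), knockout brown 1 (0.0634) or knockout brown 2, 3 and 4 (0.0634). Brown and white arrays of a genotype shared no slide, and with the slide as a fixed block over the 16 arrays, which compares them only through the other groups, the difference was 1.17 with an adjusted p of 0.124.

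In knockout mice Nr4a1 was at 4.27, 4.22, 4.18 and 4.14 in brown fat, against 2.28, 2.85, 2.87 and 2.86 in white fat. The arrays were again wholly apart, and the difference was 1.65 ± 0.30 (SE, 2 samples each), 3.15-fold, with a limma adjusted p of 0.0544, against 1.54% of all genes called. The adjusted p ranged from 4.49e-05 to 0.342 in 33 alternatives. The difference ranged from 1.36 to 1.99 over these alternatives, and the direction held in all 33. Leaving out knockout white 2, 3 and 4, which left knockout white 1 alone, gave a difference of 1.95. The tissue difference in knockouts exceeded that in controls by 0.30 ± 0.41, which is smaller than its error. From low to high, Nr4a1 followed the order knockout white (2.57 ± 0.41, SD, n = 2), control white (3.37 ± 0.45, n = 2), knockout brown (4.22 ± 0.06, n = 2) and control brown (4.72 ± 0.16, n = 3). The samples of no neighbouring pair overlapped, and how many of all genes show this was not counted. Skeletal muscle markers, all 14 of them measured, differed far more between the tissues, with summed levels of 1865 to 3394 in knockout brown fat, against 10.1 to 11.8 in knockout white fat, and 3698 to 4752 in control brown fat, against 3.75 to 5.14 in control white fat. Their part in the Nr4a1 result was not tested.

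Fos in knockout mice was at -1.12, -1.17, -1.18 and -1.20 in brown fat, against -2.89, -3.24, -3.28 and -3.30 in white fat. The tissues were wholly apart in knockouts and the difference was 1.93 ± 0.47 (SE, 2 samples each, 3.82-fold), with an unadjusted p of 0.00422 and a limma adjusted p of 0.120. In controls the same difference was 0.40 ± 0.43, with overlapping arrays. Fos and Nr4a1, 2 of the 10 members, had all knockout brown arrays above all knockout white arrays, against 13.1% of all genes, and these 2 also had an unadjusted p below 0.05, against 15.3% of all genes.

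The other tissue differences in controls did not pass. Jun and Egr2 lay wholly higher on control brown than on control white arrays, by 0.28 ± 0.37 and 0.77 ± 0.70, and Zfp36 wholly lower, by -0.52 ± 0.42. With Nr4a1 this made 4 members with arrays apart, against 48.2% of all genes, so that a share of this size was common on these arrays. Fosb (1.27 ± 0.68) and Atf3 (0.68 ± 0.49) averaged higher in brown fat, Egr1 (-0.64 ± 0.36) lower, and Junb and Ier2 differed by -0.26 ± 0.58 and -0.13 ± 0.39. In knockouts Fosb (1.16 ± 0.74), Egr2 (0.93 ± 0.77), Atf3 (0.63 ± 0.54) and Jun (0.41 ± 0.41) averaged higher in brown fat, and Egr1, Ier2, Junb and Zfp36 differed by at most 0.24 in either direction. Without knockout white 2, 3 and 4, which left knockout white 1 alone at -1.72, the Egr2 difference was 2.24. The sample left out was at 0.90, against 0.28 and 0.76 in the knockout brown samples. Over 33 alternatives the Egr2 difference ranged from -0.38 to 2.24. The members' median difference between the tissues was 0.52 in knockouts and 0.34 in controls, against -0.04 and -0.09 over all genes. With the slide as a fixed block these medians turned to -0.17 in knockouts and -0.062 in controls.

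**Figure D3:**
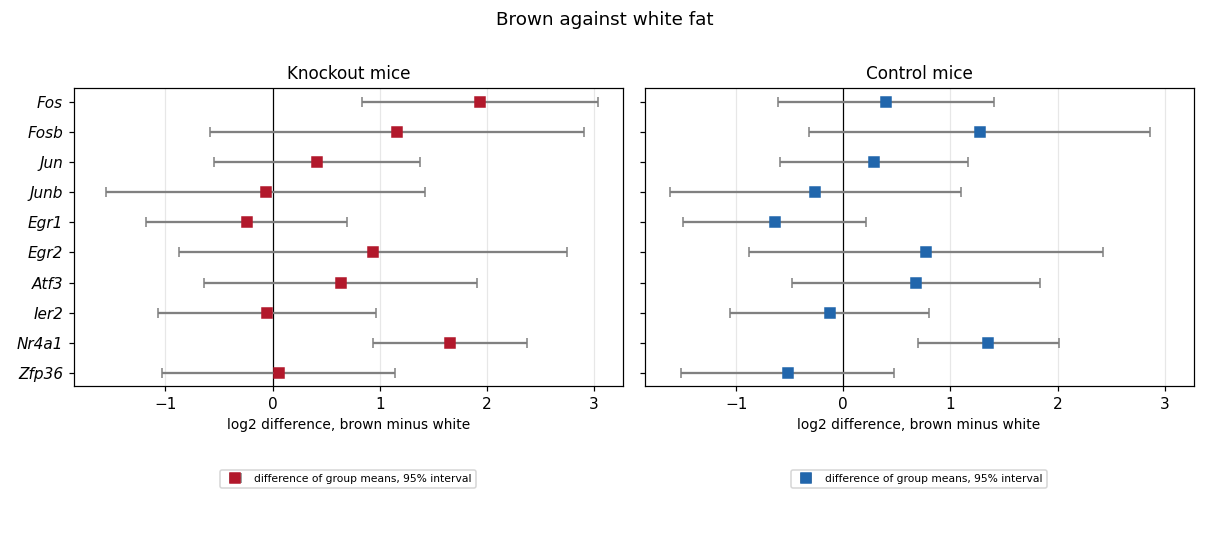
Difference between brown and white fat in log2 units for each immediate early gene, in knockout mice (left panel) and control mice (right panel), with 95% intervals from limma. Nr4a1 lies at 1.65 in knockouts and 1.35 in controls, and Fos at 1.93 in knockouts and 0.40 in controls.

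Across the 4 groups, each member's levels could be put in order of the group means. Groups held 2 or 3 samples each, and overlap of neighbouring groups was not counted over all genes, so these orders are a description. Fos, Fosb, Jun, Atf3 and Nr4a1 had their lowest mean in knockout white fat and their highest in control brown fat. Egr1 had its lowest mean in knockout brown fat (1.12 ± 0.16, SD, n = 2) and its highest in control white fat (2.36 ± 0.32, n = 2), with every neighbouring pair overlapping. Junb and Ier2 had their highest mean in knockout white fat, at 4.20 ± 1.32 and 1.56 ± 0.92 (SD, n = 2), and their lowest in control brown fat, at 3.53 ± 0.54 and 1.25 ± 0.29 (SD, n = 3), and no neighbouring groups of either were apart. Egr2 had its lowest mean in knockout white fat with an SD of 1.85, the widest of any member in any group.

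Related genes were examined by pathway lists, and in neither tissue did a gene of any list pass the threshold between knockout and control in limma. Of 11 other AP-1 and ATF subunits tested, 6 had lower means in knockout white fat and 9 in knockout brown fat, with medians of -0.12 and -0.03. Maff, a small MAF protein, differed by -1.27 ± 0.29 (adjusted p = 0.379) and Fosl2 by -0.77 ± 0.38 in white fat, and Batf, a leucine zipper protein of lymphocytes, by 2.02 ± 0.98 and Atf4 by -0.40 ± 0.23 in brown fat. Among 9 relatives of EGR, NR4A, IER and ZFP36 the medians were 0.26 in white and -0.10 in brown fat, and the smallest p-values were those of Nab2 (0.47 ± 0.35), a corepressor of EGR proteins, and Zfp36l2 (0.41 ± 0.34) in white fat and of Ier5 (1.14 ± 0.61) and Ier5l (-0.36 ± 0.21) in brown fat.

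Of 32 other immediate early genes, 16 had lower and 16 higher means in knockout white fat, with a median of 0.00, and 17 had lower means in knockout brown fat, with a median of -0.04. Ccn1, a secreted matrix protein gene that the serum response factor drives, differed by -1.71 ± 0.35 (limma adjusted p = 0.298) and Id3 by -0.78 ± 0.35 in white fat, while Myc differed by 1.32 ± 0.43 and Nfil3 by -1.22 ± 0.50 in brown fat (adjusted p = 0.619 for both). The 13 feedback phosphatase and Sprouty genes, which shut off the kinases upstream, had medians of -0.08 and -0.44. Dusp1, which dephosphorylates the p38 and JNK kinases and is a known glucocorticoid-induced gene, differed by -1.28 ± 0.24 in white fat (adjusted p = 0.285), with Spry4 at -1.29 ± 0.55, and Dusp8 and Dusp10 differed by -0.53 ± 0.19 and -0.44 ± 0.18 in brown fat. In brown against white fat of controls Dusp10 (1.02 ± 0.18, adjusted p = 0.0244), Dusp14 (2.07 ± 0.38, 0.0281) and Atf4 (1.10 ± 0.23, 0.0434) rose past the threshold, as did the reference genes Pgk1 (1.98 ± 0.23, 0.0047) and Gapdh (1.64 ± 0.31, 0.0293). In knockouts 0 genes of these pathway lists did, apart from Pgk1 (1.47 ± 0.25, adjusted p = 0.0450).

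Upstream, 13 of 23 kinases and factors had lower means in knockout white fat and 15 in knockout brown fat, with medians of -0.08 and -0.13. Mrtfb, a coactivator of the serum response factor, differed by -1.08 ± 0.22 (limma adjusted p = 0.298) and Srf itself by 1.02 ± 0.44 in white fat, and Crtc3, a CREB coactivator, by -0.56 ± 0.22 and Mrtfb by -0.39 ± 0.20 in brown fat. Downstream, 10 cytokine transcripts of the kind that ZFP36 destabilises had medians of 0.18 in white fat and 0.00 in brown fat, with 5 of 10 higher in each. Ccl2 differed by -0.98 ± 0.48 and Vegfa by -0.96 ± 0.47 in white fat, and Tnf by 1.47 ± 0.99 and Vegfa by -0.55 ± 0.43 in brown fat. The 14 heat shock genes, which also answer to stress, had medians of -0.24 in white and -0.28 in brown fat, with Hspd1 (-0.48 ± 0.26) and Hspa1b (-0.87 ± 0.73) leading in white fat and Hspd1 (-0.36 ± 0.23) and Hsp90ab1 (-0.31 ± 0.23) in brown fat. The 15 reference genes had medians of -0.27 and -0.06, with Hprt at -0.63 ± 0.22 in white fat and Pgk1 at -0.81 ± 0.23 in brown fat, so values of that size occurred among genes used as standards. The members' medians of -0.67 and -0.35 stand beside these values as a description. By sample, knockout white 1 and knockout white 2, 3 and 4 lay on opposite sides of both control white samples for some lists. Median levels were -0.25 and 0.82 for other AP-1 and ATF subunits (controls 0.485 and 0.505). They were 0.41 and -0.92 for feedback phosphatases (0.34 and 0.047) and 1.41 and 1.69 for upstream genes (1.53 and 1.46). ZFP36 target cytokines were at -3.71 and -1.08 (-2.25 and -2.74). The other related lists did not split in this way.

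**Figure D4:**
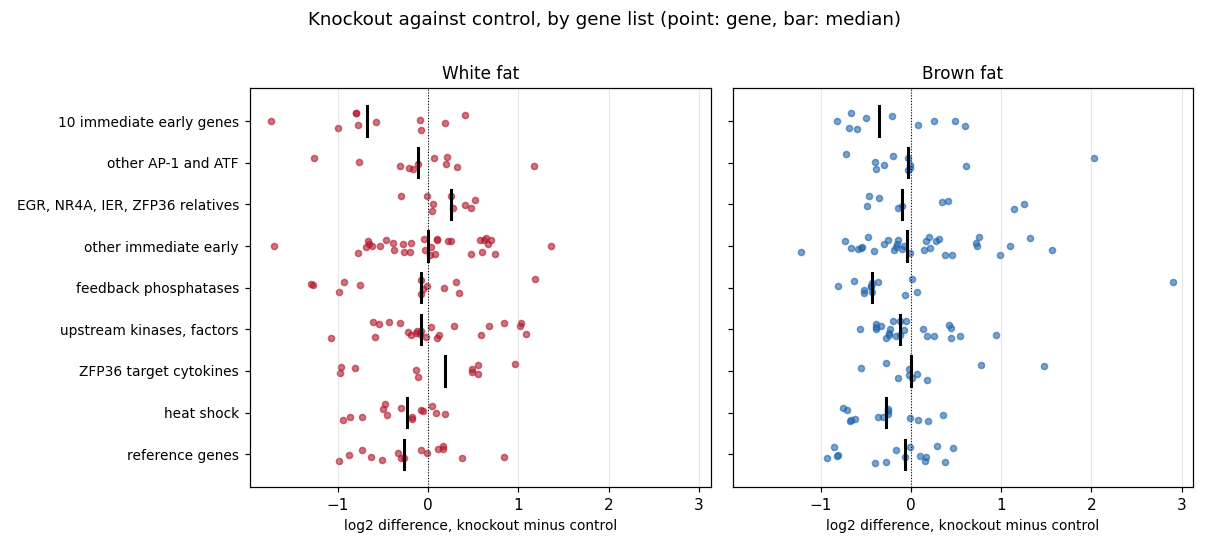
Difference between knockout and control in log2 units for each gene of each list, in white fat (left panel) and brown fat (right panel), with 1 point per gene and a bar at the list's median. The 10 immediate early genes have a median of -0.67 in white fat and -0.35 in brown fat, and the other 32 immediate early genes have medians of 0.00 and -0.04.

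The 5 genes outside the set whose levels followed the mean of the members most closely over the 9 distinct samples were Gpatch11 (Pearson r = 0.948), Ube2f (0.937), Olfr102 (0.936), Nrbf2 (0.934) and Mthfd1 (0.931). These were the highest of 15465 tested genes over 9 samples that share tissue and genotype, and are given as a description. Olfr102 was very dim, at -8.07 to -3.50 over the samples, while Gpatch11 was at 2.30 to 3.09.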

How the data were processed

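The labels give the tissue, the genotype and the number of each of the 16 samples, and per the labels total RNA was labelled with Cy3 for 1-colour arrays. Per the file headers, Agilent Feature Extraction 12.0.0.7 read the scans, and the deposited files hold background-subtracted, detrended spot intensity on a linear scale, unscaled between arrays. The authors' value table equals the mean intensity of each probe's spots (relative tolerance 0.001, 41174 of 41174 probes), with column medians of 57.978 to 100.522. Outlier spots were left out here, spots averaged, and log2 intensity set against each array's 75th percentile. Of the probes, 28215 were named through RefSeq accessions and 12959 were not. Probes well above background on all 4 arrays of a group were kept, with the brightest per gene (15465 genes, 29304 probes). Arrays differing by less than the scanner's error were averaged.

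limma 3.58.1 in R 4.3.3 fitted a mean per group and 1 spread per gene over the 9 samples (5 residual degrees of freedom), with Benjamini-Hochberg adjustment and a threshold of 0.05. The fit was also run on simulated data, and the outcome is not reported here. The members and gene lists were chosen with earlier results of these data known. The rule named all members, Nr3c1, pathway list genes past the threshold (up to 4) or else the 2 with the smallest p, and the 5 genes most alike. List genes below the threshold are named for the knockout comparisons only. The files hold no mean spot signal, so the normexp alternative used the median one.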

Additional observations from a re-analysis of the deposited data

How the results depend on the processing

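Over 34 alternatives, 85 of 1670 member values took the other sign, and none of these had passed a threshold in either fit; 44 values passed only in an alternative, and 12, all of Nr4a1 between control tissues, passed only in the fit reported. With all 16 arrays as separate samples, members called were 4 in white knockout (Fos, Jun, Egr1 and Nr4a1, all lower, with -1.84 and adjusted p = 0.000564 for Fos over a range of 0.000547 to 0.999), 4 in brown knockout (Jun, Atf3 and Nr4a1 lower, Zfp36 higher), 1 in the difference of the effects (Fos), 2 between knockout tissues and 4 between control tissues, of 6904, 4718, 618, 3964 and 6070 genes; that fit counts arrays below scanner error apart. With the replicate block on 16 arrays the members called were 4, 3, 0, 2 and 2 and the genes 7100, 4958, 319, 3890 and 6164, and with the slide as a random block 4, 4, 1, 2 and 4 and 6951, 4726, 677, 4021 and 6126. With the slide as a fixed block 191 genes were called in white knockout and 1 in brown knockout, 0 members between control tissues, and the members' median was -0.17 between knockout and -0.062 between control tissues. Deviations from group means of same-numbered arrays correlated between white and brown fat at 0.570, 0.435, 0.471 and 0.295 for knockout numbers 1 to 4 and at -0.130, 0.055, 0.052 and 0.182 for control numbers, but knockout number 4 correlated better with another number, and knockout arrays 2, 3 and 4 are 1 sample, so only 2 distinct pairs exist and a shared number is not shown to pair the tissues. With the knockout number as a replicate block on the 9 samples, an alternative chosen after seeing the data, 1 member (Nr4a1, adjusted p = 0.0369) and 625 genes were called between knockout tissues and 1891 between control tissues, and it changed no other call of a member.

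Under normexp, quantile scaling and the authors' values, Nr4a1 alone passed between knockout tissues, at 1.71, 1.61 and 1.94 (limma adjusted p = 0.036, 0.046 and 0.027). Between control tissues no member passed, with Nr4a1 at 1.20, 1.14 and 1.01 (limma adjusted p = 0.056, 0.056 and 0.080). The counts were the same over all probes. In the fit reported 238 and 781 of 15465 genes passed in these comparisons. The numbers of all genes under these settings are not given here. On the authors' values the medians were 0.080 in brown knockout, 0.80 for the difference of the effects and -0.0027 between control tissues, where all genes shifted by 0.31, 0.64 and -0.43. No filter left 0 members between control tissues, and the strict filter 104 and 488 genes between knockout and control tissues. Leaving out an array or a sample, genes called ranged from 0 to 1658 in white knockout, 0 to 1 in brown knockout, 0 to 48 for the difference of the effects, 112 to 1013 between knockout and 178 to 1740 between control tissues. Members called between tissues ranged from 0 to 2 in knockouts and 0 to 1 in controls, and the members' median from -0.092 to 0.78 for the difference of the effects and 0.075 to 0.81 between knockout tissues. Without knockout 2, 3 and 4 of both tissues, an alternative chosen after seeing the data, 148 genes were called in white knockout, 10 for the difference of the effects, 913 between knockout and 2339 between control tissues, with medians of 0.60 for the difference of the effects and 0.86 between knockout tissues. Where a lone sample was left, it was assumed to vary like the other groups. The causes were not tested.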
